A study of Mus musculus with 32 samples.

Results

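The genes of the mouse major histocompatibility complex (MHC) classes I and II were described across the developing lungs of mice given antimiR-34a or a scrambled antimiR in 21% O2 or 85% O2. Members were the array probes whose gene name starts with H2- or is B2m, Cd74 or Ciita, which gave 58 probes of 42 genes among the 35715 gene or probe names on the array. A probe was kept where the scanner software had marked its spot as well above background in each of the 4 mice of a group, for 1 group or more, and 41 probes of 31 genes were kept. These comprised 4 probes of 3 class I genes, 15 probes of 11 class II genes and 19 probes of 15 non-classical genes. The remaining 3 kept probes read H2-K2, a pseudogene, and H2-Ke6, a metabolic enzyme gene of the same region. Neither encodes an MHC chain. Counts and medians over 41 probes include these 3 probes, and the counts by class leave them out.

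RNA of the whole lung was hybridised to one-colour 60-base arrays, with 1 mouse per array and 32 mice in all. The 8 groups, each of 4 C57Bl/6J mice of both sexes, were formed by age (P5 or P14), oxygen level and antimiR. All mice had received a locked nucleic acid antimiR, either directed against miR-34a (A34a) or scrambled (SCR), at 10 mg/kg into the peritoneum at P1 and P3, so no group was untreated. The 85% O2 groups breathed that gas from birth, which is a mouse model of bronchopulmonary dysplasia, and the 21% O2 groups breathed room air. The sample labels date the lungs P5.5 and P14.5, where the methods give P5 and P14, and the lungs were flushed of blood before sampling. The labels also name a different agent for killing the mice at each age, pentobarbital at the earlier and isoflurane at the later, and an RNA kit (miRNeasy) other than that of the methods (peqGOLD).

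Class I molecules present peptides from inside the cell to CD8+ T cells on nearly every nucleated cell, and consist of a heavy chain and the light chain B2m. Class II molecules present peptides from the endosome to CD4+ T cells, and are made mainly by dendritic cells, B cells and macrophages, with lower amounts in type II pneumocytes. The invariant chain Cd74 escorts class II chains to the endosome, H2-DM exchanges its remnant for a peptide, H2-O restrains H2-DM, mainly in B cells, and the coactivator Ciita turns on the class II genes together with factors bound to the X and Y boxes of their promoters. Non-classical genes of the Q, T and M regions encode class I-like heavy chains, several of which are read by natural killer cells or unconventional T cells.

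The promoters of class II chains that went different ways in the lungs are shown so that their box letters can be read side by side, with that of the class I gene H2-D1. Promoter sequence of RefSeq (build GRCm38.p6) was read for 19 of the 29 MHC genes with a kept probe. Capitals mark the Y box letters TGATTGG and the X box core letters ATGATG, and in H2-D1 also GGATTCCC, a sequence bound by NF-kB, and TTTCNNTTC, the interferon response letters. In H2-D1 the Y box letters stand on the other strand and read CCAATCA. Each stretch is written 5′ to 3′ on the strand of its gene.
H2-DMb1 (chr17:34153051-34153190, plus strand): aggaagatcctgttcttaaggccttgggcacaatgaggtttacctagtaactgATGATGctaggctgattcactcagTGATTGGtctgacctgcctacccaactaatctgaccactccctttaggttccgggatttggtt
H2-DMb2 (chr17:34145109-34145248, plus strand): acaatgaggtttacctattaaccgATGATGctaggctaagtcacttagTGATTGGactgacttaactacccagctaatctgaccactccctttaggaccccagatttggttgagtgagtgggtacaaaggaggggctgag
H2-Ob (chr17:34238765-34238904, plus strand): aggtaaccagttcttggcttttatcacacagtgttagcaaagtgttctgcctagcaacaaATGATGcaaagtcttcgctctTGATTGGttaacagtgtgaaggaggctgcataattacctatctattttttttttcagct
H2-Oa (chr17:34092239-34092378, plus strand): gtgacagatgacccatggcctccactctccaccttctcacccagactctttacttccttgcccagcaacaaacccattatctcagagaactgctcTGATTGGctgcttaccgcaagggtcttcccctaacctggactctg
H2-Aa (chr17:34287824-34287963, minus strand): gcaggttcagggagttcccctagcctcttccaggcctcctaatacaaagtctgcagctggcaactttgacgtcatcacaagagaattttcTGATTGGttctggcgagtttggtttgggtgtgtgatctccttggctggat
H2-Eb1 (chr17:34305727-34305866, plus strand): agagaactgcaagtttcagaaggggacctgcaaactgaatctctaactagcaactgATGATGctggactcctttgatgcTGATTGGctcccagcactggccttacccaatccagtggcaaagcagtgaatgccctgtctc
H2-D1 (chr17:35262919-35263093, plus strand): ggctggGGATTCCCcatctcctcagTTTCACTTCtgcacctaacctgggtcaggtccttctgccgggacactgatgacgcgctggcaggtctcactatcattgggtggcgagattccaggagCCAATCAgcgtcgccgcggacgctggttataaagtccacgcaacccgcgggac
TGATTGG stood on either strand within 250 bases before the start in 12 of the 19 genes, among them 7 of 8 class II genes, against 7.23% of 32851 promoters. ATGATG stood there in 6 genes, 4 of them class II, against 9.39% of all promoters. GGATTCCC was found in 3 genes, against 0.834% of all promoters, and TTTCNNTTC in 7 genes, against 6.31% of all promoters. No class II promoter held either of the last 2 motifs. Of the genes shown, H2-DMb1, H2-DMb2, H2-Ob and H2-Eb1 hold both the Y box and the X box core letters, and H2-Oa and H2-Aa the Y box letters alone. A match is a string of letters and not a shown binding site, and a missing string does not show that a box is missing.

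In the mm9 coordinates of the array, 9 of the kept class II probes lay on chromosome 17 between 34232033 and 34476993, and 17 of the 19 non-classical probes between 35460007 and 37618439. The array gave no coordinates for the probes of H2-DMa, H2-Bl and H2-T23 and the second H2-Ob probe. The B2m probe lay on chromosome 2 and the 3 Ciita probes on chromosome 16. Of the 17 probes not kept, 10 were not above background on any array. One of them read H2-Ea-ps, the alpha chain of the second class II dimer, whose gene is disrupted in C57BL/6 mice. The other genes without a kept probe were H2-M1, H2-M5, H2-M9, H2-M10.1, H2-M10.2, H2-M10.3, H2-M10.4, H2-M10.6, H2-T3 and H2-T18.

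Probes of related genes can share target RNA. The second H2-K1 probe shared a run of 29 bases with the H2-T23 probe, the second H2-K2 probe matched the H2-Q7 probe at 49 of 60 bases, and H2-Q10 and H2-Q2 each had a probe that matched the other at 45 bases. Class I and non-classical values of these genes are therefore uncertain as to which gene they read. No class II probe matched that of another member at more than 28 of its 60 bases.

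Levels are log2 values of the processed spot brightness minus the 75th percentile of its array, so 1 unit is a 2-fold difference and a level is comparable only within 1 probe. A probe was called where the Benjamini-Hochberg adjusted p of limma, over all probes tested, was under 0.05. The arrays lay on 4 slides of 8. Each slide held 1 age and 1 oxygen level, and within a slide the SCR arrays filled one row and the A34a arrays the other. An oxygen or age difference cannot be told apart from a slide difference, nor, by the labels, an age difference from that of the killing agent, nor an antimiR difference from an array row. Between 33607 and 40776 probes were well above background per array, with 34603 to 36475 on the P14 arrays in 85% O2 and 39009 to 40776 on those in 21% O2. There were 3 arrays that stood apart, and results that turn on them are also given without them. P5 SCR mouse 4 in 21% O2 had a mean skeletal muscle marker level of 1.54, where the median of its group was −2.47. At P14 in 21% O2, SCR mouse 4 had a 75th percentile of 9.34, where the other SCR arrays had 10.12 to 10.17, and A34a mouse 1 had 10.20, where the other A34a arrays had 9.56 to 9.64. The mean level of 10 type II pneumocyte markers lay between 4.78 and 5.40 on every array, so the defining markers of lung were present.

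MHC genes of all 3 classes were higher at P14 than at P5, a comparison in which age, slide and killing agent change together. In SCR mice in 21% O2, 36 of 41 probes rose and 1 fell between P5 and P14, where 51.4% of all 39162 probes tested were called, 27.8% higher and 23.5% lower. All 4 class I probes rose, as did 14 of 15 class II and 16 of 19 non-classical probes. The median log2 change of the members was 1.15, beside 0.04 over all probes. In bulk lung RNA, fewer cells of a type and less RNA per cell cannot be told apart. In 36 of the 41 probes the P5 and P14 mice did not overlap, where this held for 49.1% of all probes.

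**Figure D1:**
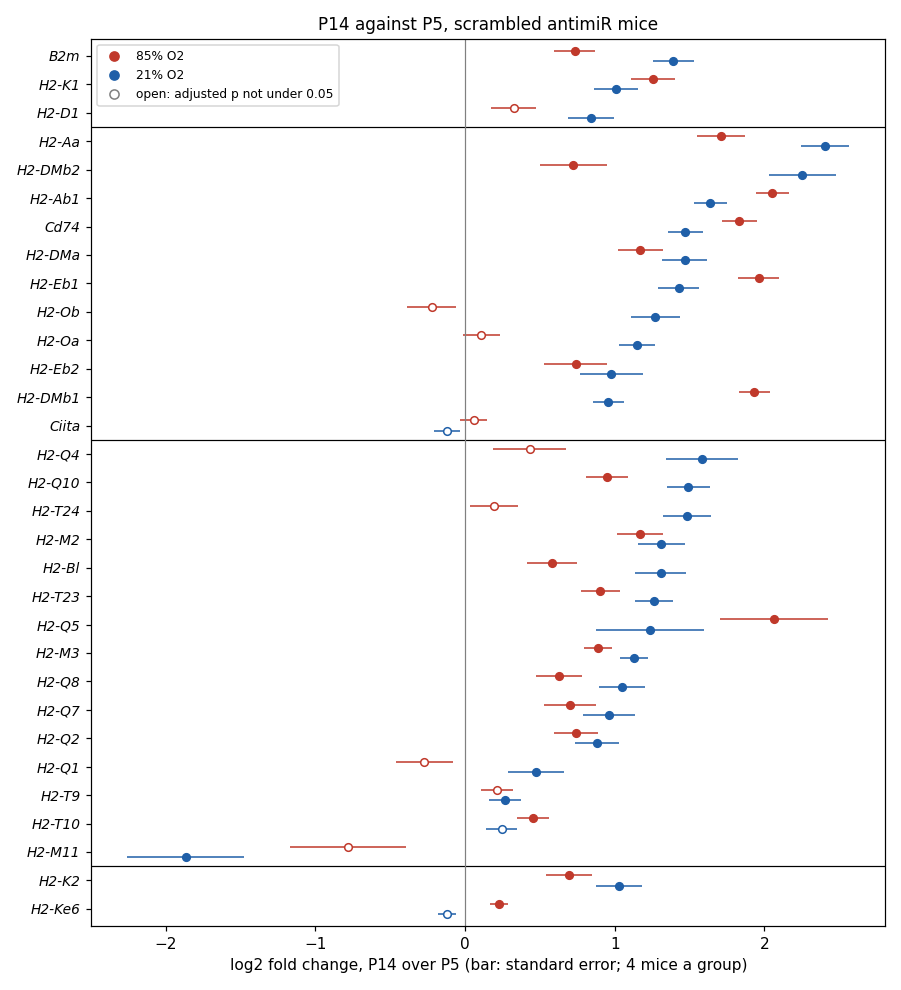
Log2 change from P5 to P14 of each kept MHC gene in scrambled antimiR mice, in 21% O2 and in 85% O2, with bars of 1 standard error of the limma fit and filled symbols for called changes. Most genes lie above 0 in both, H2-M11 lies lowest in 21% O2 at −1.87, and H2-Ob, H2-Oa and H2-T24 are called in 21% O2 and not in 85% O2.

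Among the brightest probes of each gene, the class II alpha chain H2-Aa rose the most with age in 21% O2. In SCR mice its levels were 0.13, 0.22, 0.24 and 0.25 at P5 and 2.35, 2.69, 2.70 and 2.73 at P14. The ages did not overlap, and the log2 change was 2.41 ± 0.16 (SE, limma adjusted p = 1.25e-11). Its partner H2-Ab1 went from 3.89, 3.93, 4.01 and 4.02 to 5.38, 5.61, 5.62 and 5.78, a change of 1.64 ± 0.11 (adjusted p = 1.24e-11). H2-Eb1, the beta chain of the second dimer, rose by 1.43 ± 0.14 and Cd74 by 1.47 ± 0.12, with no overlap between ages in either.

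The genes that edit the class II peptide rose too. H2-DMb2, 1 of 2 genes for the beta chain of H2-DM, stood at −5.75, −5.56, −5.44 and −5.25 at P5, where the lowest array was not well above background, and at −3.57, −3.29, −3.15 and −2.98 at P14. This was a change of 2.25 ± 0.22 (limma adjusted p = 9.35e-09), with no overlap. H2-DMb1, the other such gene, rose by 0.96 ± 0.10, the alpha chain H2-DMa by 1.47 ± 0.15, and the H2-O chains H2-Oa and H2-Ob by 1.15 ± 0.12 and 1.27 ± 0.16. H2-Eb2, a related beta chain gene, rose by 0.98 ± 0.21. The brightest Ciita probe was the class II probe without a call, at −0.12 ± 0.09 (adjusted p = 0.262). Its P5 mice lay between −3.01 and −2.86 and its P14 mice between −3.17 and −2.94, which overlap. The other Ciita probes were called higher at P14. Their group means went from −4.40 to −3.66 and from −3.77 to −2.60, so the probes of this gene did not agree.

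Class I genes rose too. The light chain B2m had levels of 4.06, 4.09, 4.14 and 4.22 at P5 and 5.24, 5.42, 5.56 and 5.85 at P14 in SCR mice in 21% O2. Its change was 1.39 ± 0.14 (limma adjusted p = 7.94e-09). The heavy chains H2-K1 and H2-D1 rose by 1.01 ± 0.15 and 0.84 ± 0.15, and neither overlapped between ages. H2-D1 went from 3.65, 3.69, 3.89 and 3.90 to 4.19, 4.56, 4.79 and 4.96.

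Among non-classical genes, H2-Q4 rose by 1.58 ± 0.24 (limma adjusted p = 6.72e-06), from 5.78, 5.96, 6.02 and 6.33 to 6.98, 7.53, 7.53 and 8.38. H2-T23, whose product Qa-1 is a ligand of inhibitory receptors on natural killer cells, rose by 1.26 ± 0.13, from between 3.28 and 3.54 to between 4.41 and 5.02. H2-M3, which presents bacterial formyl peptides, rose by 1.13 ± 0.09, from between −1.36 and −0.95 to between −0.11 and 0.03. H2-M11 was the gene that fell, from −0.76, −0.59, −0.30 and −0.27 to −2.84, −2.33, −2.15 and −2.06, a change of −1.87 ± 0.39 (adjusted p = 0.000292). H2-T10 was not called, at 0.25 ± 0.10 (adjusted p = 0.0509). H2-Q10, H2-M2, H2-T24, H2-Bl, H2-Q5, H2-Q8, H2-Q7, H2-Q2, H2-Q1 and H2-T9 also rose, by 0.27 (H2-T9) to 1.49 (H2-Q10) on their brightest probes. The brightest H2-Q10 probe is the one that matches an H2-Q2 probe at 45 bases. The second H2-Q10 probe moved little, with group means of −2.79 at P5 and −2.59 at P14.

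**Figure D2:**
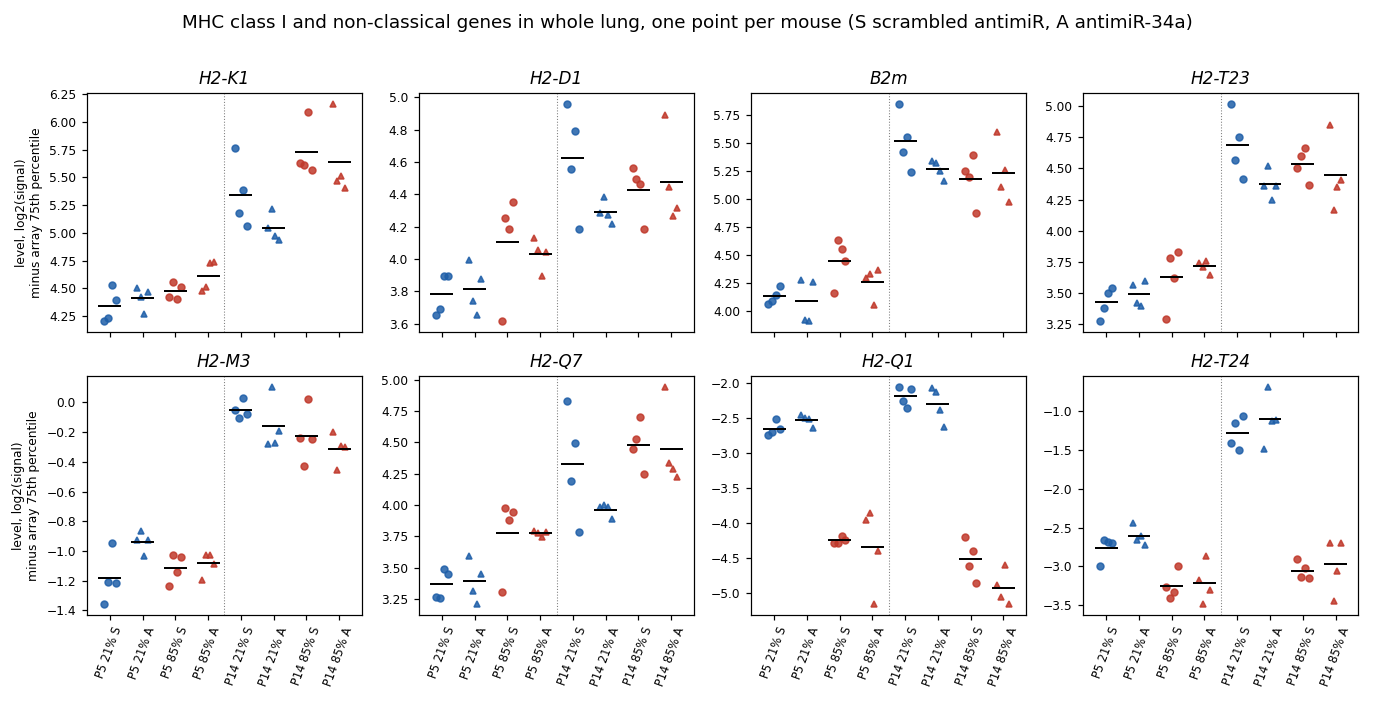
Log2 level (75th percentile of each array set to 0) of class I and non-classical genes in each mouse, 1 panel per gene and 4 points per group, with a line at the group mean. B2m and H2-K1 sit higher at P14 with no overlap in SCR mice, H2-D1 overlaps between ages in 85% O2, and H2-Q1 is low in every 85% O2 group, between −5.16 and −3.85.

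Fewer member probes were called higher with age in 85% O2 than in room air, and fewer of all probes were called. The difference between these counts was not tested. Single genes went both ways. Cd74, H2-Ab1, H2-Eb1 and H2-DMb1 rose more than in room air, and H2-Oa and H2-Ob had smaller changes. In SCR mice, 27 of 41 probes rose and 0 fell, where 42.2% of all probes were called, and the member median was 0.724 beside 0.09 over all probes. The called probes comprised 3 of 4 of class I, 10 of 15 of class II and 11 of 19 non-classical. Groups did not overlap in 26 of 41 probes and in 37.5% of all probes. Cd74, H2-Ab1 and H2-Eb1 rose by 1.83 ± 0.12, 2.05 ± 0.11 and 1.96 ± 0.14. H2-DMb1 went from 1.42, 1.59, 1.63 and 1.68 to 3.36, 3.53, 3.56 and 3.60, a change of 1.93 ± 0.10 (limma adjusted p = 3.85e-13). H2-Q5 changed by 2.06 ± 0.36, with levels of −2.37, −2.12, −2.10 and −2.02 at P5 and a wide spread from −0.75 to 0.91 at P14. H2-Oa and H2-Ob, which restrain H2-DM, changed by 0.11 ± 0.12 (adjusted p = 0.502) and −0.22 ± 0.16 (adjusted p = 0.288) and were not called.

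At P14 in 85% O2, H2-DMb1 was higher and H2-Ob, H2-DMb2, H2-Oa and H2-Aa were lower with both antimiRs. In SCR mice, 4 member probes were higher and 11 lower in 85% O2 than in 21% O2, where 60.8% of all 38455 probes tested were called, 28.4% higher and 32.4% lower. In A34a mice, which are different animals, 12 were higher and 12 lower, where 65.6% of all probes were called, 27.8% higher and 37.8% lower. The 15 probes called in SCR mice were called in the same direction in A34a mice, 4 of them higher. Of the class II probes, 3 were higher and 6 lower in SCR mice, and 6 were higher and 7 lower in A34a mice. Without the 3 arrays that stood apart, 1 class II probe was higher and 6 lower in SCR mice, and 5 were higher and 7 lower in A34a mice. The member median was −0.138 in SCR mice and 0.127 in A34a mice, beside −0.065 and −0.114 over all probes. With quantile normalization the A34a median was 0.025, beside 0.082 over all probes. Groups did not overlap in 15 of 41 probes in SCR mice and in 22 in A34a mice, where this held for 56.7% and 58.9% of all probes. With quantile normalization the split in A34a mice was 5 higher and 11 lower. With the methods' t-test it was 3 higher and 10 lower, where 55.6% of all probes were called, and without the 3 arrays that stood apart the split in SCR mice was 2 higher and 12 lower. The shares of all members called lie below those of all probes. The class II probes called, 60% in SCR mice and 86.7% in A34a mice, stand beside 60.8% and 65.6% of all probes. The A34a count was not stable, with 3 higher and 6 lower of 15 under quantile normalization (62.6% of all probes) and 1 higher and 5 lower under the methods' t-test. Bright and dim probes of the whole array moved unlike each other in this comparison. In SCR mice the median change of probes under −4 was −0.565 and that of probes over 2 was 0.193, and the part of this in the member values was not tested.

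**Figure D3:**
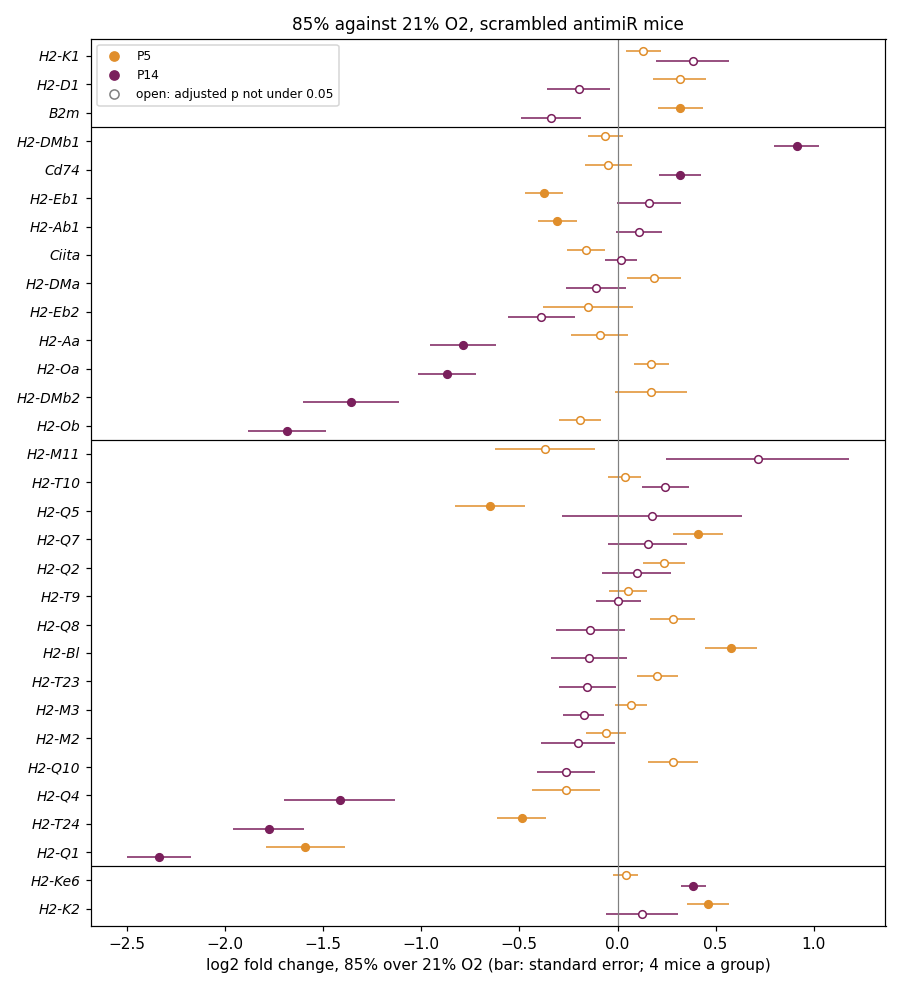
Log2 change in 85% O2 against 21% O2 of each kept MHC gene in scrambled antimiR mice, at P5 and at P14, with bars of 1 standard error of the limma fit and filled symbols for called changes. At P14 H2-DMb1 lies above 0 at 0.91, while H2-Ob, H2-DMb2, H2-Oa and H2-Aa lie below 0 at −1.69 to −0.79.

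H2-DMb1, a beta chain of the peptide editor H2-DM, was higher in 85% O2. At P14 the SCR mice stood at 2.29, 2.67, 2.68 and 2.75 in 21% O2 and at 3.36, 3.53, 3.56 and 3.60 in 85% O2, and the A34a mice at 2.29, 2.40, 2.41 and 2.51 and at 3.06, 3.36, 3.47 and 3.53. The oxygen levels did not overlap with either antimiR. The log2 changes were 0.91 ± 0.12 (limma adjusted p = 1.49e-05) and 0.95 ± 0.12 (adjusted p = 8.99e-06), or 1.88-fold and 1.94-fold.

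H2-DMb2, the neighbouring gene for the same chain, was lower. Its SCR mice went from −3.57, −3.29, −3.15 and −2.98 in 21% O2 to −5.00, −4.68, −4.50 and −4.24 in 85% O2. Its A34a mice went from −3.77, −3.63, −3.57 and −3.44 to −5.83, −4.69, −4.62 and −4.62, where the lowest array was not well above background. With no overlap, the changes were −1.36 ± 0.24 (limma adjusted p = 0.000291) and −1.33 ± 0.24 (adjusted p = 0.000285). The alpha chain H2-DMa changed by −0.11 ± 0.15 and 0.06 ± 0.15 (adjusted p = 0.544 and 0.746). Its SCR mice, at 0.51 to 0.90 in 21% O2 and 0.20 to 0.98 in 85% O2, overlapped.

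Both chains of H2-O, the restrainer of H2-DM known from B cells, were lower. H2-Ob in SCR mice stood at −0.55, −0.25, −0.23 and −0.17 in 21% O2 and at −2.23, −2.19, −1.79 and −1.75 in 85% O2. In A34a mice it stood at −0.87, −0.76, −0.64 and −0.56 and at −2.60, −1.98, −1.84 and −1.42. Every mouse in 85% O2 was below every mouse in 21% O2, and the changes were −1.69 ± 0.20 (limma adjusted p = 8.38e-06) and −1.25 ± 0.20 (adjusted p = 9.07e-05). H2-Oa changed by −0.87 ± 0.15 and −0.59 ± 0.15, again with no overlap.

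Among the presenting chains, H2-Aa was lower, at 1.50, 1.69, 2.04 and 2.09 in SCR mice in 85% O2 against 2.35, 2.69, 2.70 and 2.73 in 21% O2, a change of −0.79 ± 0.17 (limma adjusted p = 0.00106), and −0.63 ± 0.17 in A34a mice (adjusted p = 0.00433), where the call was lost with the methods' t-test (adjusted p = 0.0584). Its partner H2-Ab1 was not called in SCR mice at 0.11 ± 0.12 (adjusted p = 0.444) and was higher in A34a mice by 0.39 ± 0.12 (adjusted p = 0.00956), where it went from 5.20, 5.29, 5.36 and 5.40 to 5.41, 5.66, 5.81 and 5.94. H2-Eb1 had a like pattern, with 0.16 ± 0.16 (adjusted p = 0.407) and 0.49 ± 0.16 (adjusted p = 0.0166).

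The difference between the chains of a pair was compared directly in each mouse. H2-Aa minus H2-Ab1 changed by −0.896 in SCR mice and −1.02 in A34a mice at P14, H2-DMa minus H2-DMb2 by 1.25 and 1.39, H2-DMa minus H2-DMb1 by −1.03 and −0.894, and H2-Oa minus H2-Ob by 0.817 and 0.663. In each the groups did not overlap, and each exact two-sided permutation p was 0.0286, the smallest that 4 mice against 4 allow. Over the 16 such tests the adjusted p was 0.0508, so none passed. At P5, 1 of the 8 tests reached 0.0286, H2-Oa minus H2-Ob in A34a mice, with a difference of 0.578.

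Cd74, the invariant chain, was higher in 85% O2 at P14. The SCR mice stood at 4.89, 4.98, 5.07 and 5.20 in 21% O2 and 5.13, 5.31, 5.48 and 5.48 in 85% O2, which overlap, and the A34a mice at 4.78 to 4.82 and 4.86 to 5.33, which do not. The changes were 0.32 ± 0.11 (limma adjusted p = 0.0194) and 0.36 ± 0.11 (adjusted p = 0.00856). Without the 3 arrays that stood apart the SCR change was 0.27 with an adjusted p of 0.0709, and the Cd74 calls were also lost with quantile normalization of the arrays (0.119 and 0.174). The calls of H2-Ab1 and H2-Eb1 in A34a mice were lost with quantile normalization too, at 0.25 and 0.297. The methods' t-test lost the same 4 calls, with adjusted p of 0.0508 and 0.0654 for Cd74 in SCR and A34a mice, 0.0597 for H2-Ab1 and 0.106 for H2-Eb1. The SCR call of Cd74 was also lost on leaving out SCR mouse 1 or 2 in 85% O2 (0.275 and 0.274) or SCR mouse 4 in 21% O2 (0.267).

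The probes of Ciita, the class II coactivator, did not agree. The brightest was not called, at 0.02 ± 0.08 (limma adjusted p = 0.864) and 0.14 ± 0.08 (adjusted p = 0.142), with SCR mice at −3.17, −3.10, −3.08 and −2.94 in 21% O2 and −3.17, −3.12, −3.04 and −2.89 in 85% O2. One other probe was higher, at 0.53 and 0.60, and the remaining one lower, at −2.20 and −3.18. Without the 3 arrays that stood apart the former was at 0.55 and 0.54, with both calls lost (adjusted p = 0.0573 and 0.0549), and the latter at −1.72 and −3.54. That remaining probe shares a run of at least 20 bases with probes of Cbln2, Prg4 and Tenm1. H2-Eb2 was lower in A34a mice by 0.65 ± 0.17 (adjusted p = 0.00392) and at −0.39 ± 0.17 (adjusted p = 0.0608) in SCR mice.

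**Figure D4:**
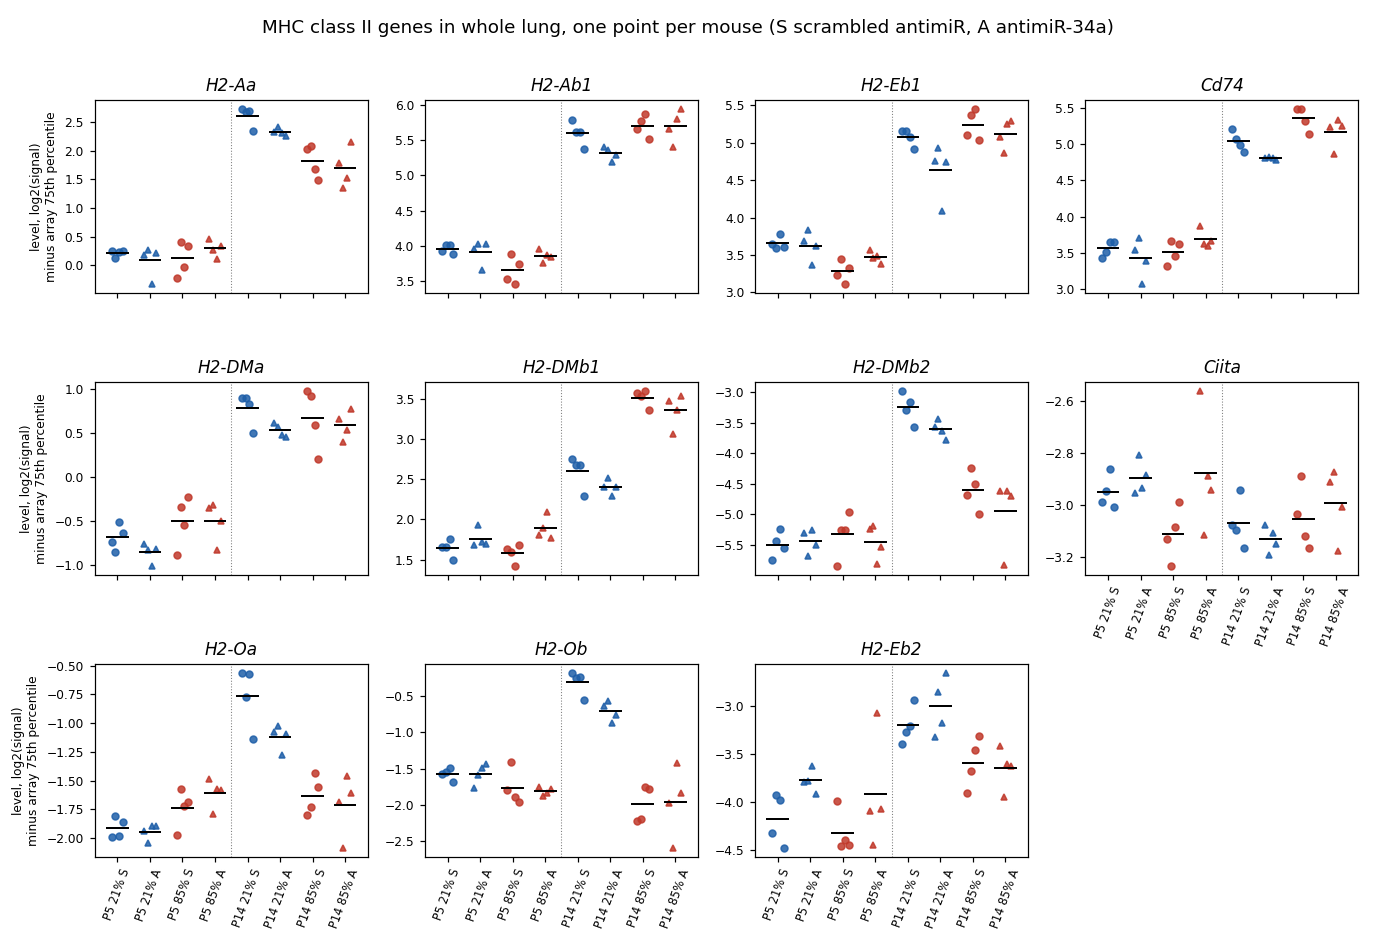
Log2 level (75th percentile of each array set to 0) of class II genes in each mouse, 1 panel per gene and 4 points per group, with a line at the group mean. At P14 in 85% O2 H2-DMb1 lies above and H2-Ob, H2-DMb2 and H2-Aa lie below the 21% O2 mice with both antimiRs.

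B cell markers were lower beside these genes. All 10 of 10 were lower in 85% O2 at P14 in both SCR and A34a mice, where 60.8% and 65.6% of all probes were called, with medians of −1.36 and −1.38, among them Ms4a1 at −1.95, Cr2 at −1.95 and Fcrla at −1.92 in SCR mice. Blk, also called lower, was well above background on 2 of 4 SCR arrays and 1 of 4 A34a arrays in 85% O2, and Pax5 on 2 of 4 A34a arrays. Their mean level per mouse was −0.48 to −0.33 in SCR mice in 21% O2 and −2.13 to −1.68 in 85% O2. Of 10 T cell markers 7 were lower and 1 higher in SCR mice, with a median of −0.706. Of these Trat1 was well above background on 2 of 4 SCR arrays in 85% O2. Of 9 measured dendritic cell markers 4 were higher and 2 lower, with Batf3 at 1.41, Ccr7 at −1.32, Clec9a at 1.10 and Itgax at 0.75. Of 10 macrophage markers 6 were higher and 2 lower, with a median of 0.607. The share of these cells in the member values was not tested.

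The other marker lists in the same SCR comparison stand beside the same 60.8% of all probes called. Monocyte markers had 3 higher and 2 lower of 7 measured, and natural killer cell markers 0 higher and 2 lower of 6. Endothelial markers had 5 higher and 3 lower of 10, and type II pneumocyte markers 1 higher and 8 lower of 10, with a median of −0.45. Skeletal muscle markers had 0 higher and 4 lower of 5 measured. Among the markers called lower, Klre1 and Myh3 were not well above background on any SCR array in 85% O2, and Mylpf was so on 2 of 4. Their part in the member values was not tested.

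**Figure D5:**
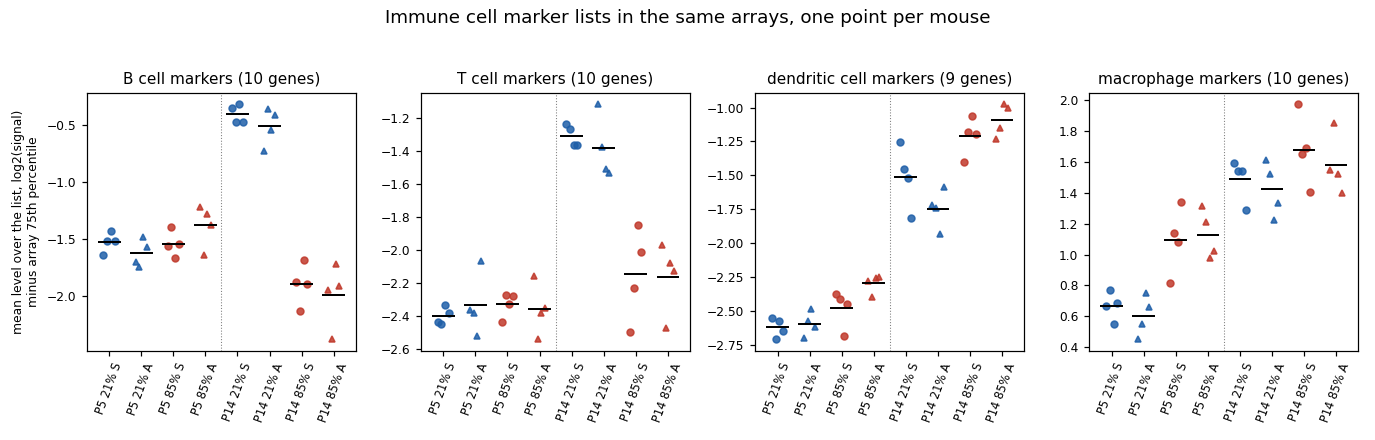
Mean log2 level of the B cell, T cell, dendritic cell and macrophage marker lists in each mouse, by group, with a line at the group mean. At P14 the B cell markers lie at −0.73 to −0.33 in 21% O2 and at −2.37 to −1.68 in 85% O2.

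Of 19 non-classical probes, 5 were lower and 0 higher in 85% O2 at P14 in SCR mice, and 5 were lower and 2 higher in A34a mice, beside the 60.8% and 65.6% of all probes called. H2-Q1 fell the most, from −2.35, −2.25, −2.07 and −2.05 in 21% O2 to −4.86, −4.61, −4.39 and −4.19 in 85% O2, a change of −2.34 ± 0.16 (limma adjusted p = 7.52e-08). In A34a mice the change was −2.63 ± 0.16 (adjusted p = 2.50e-08), or 6.17-fold lower. H2-T24 went from −1.50, −1.40, −1.15 and −1.07 to −3.15, −3.14, −3.02 and −2.90, a change of −1.78 ± 0.18, with −1.87 ± 0.18 in A34a mice. In none of these comparisons did the groups overlap.

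H2-Q4 was lower too, but its 21% O2 levels split within the antimiR groups. SCR mice stood at 6.98, 7.53, 7.53 and 8.38 in 21% O2 and at 5.95, 6.02, 6.32 and 6.47 in 85% O2, and A34a mice at 7.38, 8.48, 8.50 and 8.51 and at 5.82, 5.86, 5.89 and 6.10. The SCR mouse at 8.38 and the A34a mouse at 7.38 are the 2 arrays that stood apart by brightness. In both their 75th percentile and their H2-Q4 level each lay nearer to the other mice of the opposite antimiR group than to those of its own. The labels were kept as given, and whether these samples were exchanged was not tested. The changes were −1.42 ± 0.28 (limma adjusted p = 0.000693) and −2.30 ± 0.28 (adjusted p = 1.04e-05), and without the 3 arrays −1.16 and −2.58. The 2 probes of H2-M2 disagreed, at −0.20 ± 0.19 for the brighter, which was not called, and −1.95 for the other, which was. H2-Q7 and H2-T10 were higher in A34a mice, at 0.49 and 0.45, and not called in SCR mice. H2-T23 and H2-M3 were not called, at −0.15 ± 0.15 and −0.17 ± 0.10 in SCR mice (adjusted p = 0.376 and 0.165).

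Class I had 0 of 4 probes called at P14 in SCR mice and 1 of 4 in A34a mice, beside the 60.8% and 65.6% of all probes called. With quantile normalization 2 of 4 were called in SCR mice, both lower, and 0 of 4 in A34a mice, beside 57.2% and 62.6% of all probes. B2m was at −0.34 ± 0.15 (limma adjusted p = 0.0654) and −0.03 ± 0.15 (adjusted p = 0.858), with SCR mice at 5.24, 5.42, 5.56 and 5.85 in 21% O2 and 4.88, 5.20, 5.25 and 5.39 in 85% O2, which overlap. Without the 3 arrays that stood apart the SCR change was −0.43 and called (adjusted p = 0.0359). H2-K1 was at 0.38 ± 0.19 (adjusted p = 0.0863) in SCR mice and rose by 0.59 ± 0.19 (adjusted p = 0.0116) in A34a mice, from 4.93, 4.97, 5.04 and 5.22 to 5.40, 5.46, 5.51 and 6.17, a call lost with quantile normalization and with the methods' t-test (adjusted p = 0.0641). The second H2-K1 probe was not called with either antimiR. Its group means were 4.095 in 21% O2 and 4.165 in 85% O2 in SCR mice, and 3.739 and 4.092 in A34a mice. H2-D1 was at −0.20 ± 0.16 and 0.19 ± 0.16 (adjusted p = 0.302 and 0.321). Among the genes given apart, H2-Ke6 was higher by 0.39 and 0.21, and H2-K2 was called in A34a mice only, at 0.55.

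At P5 in 85% O2, H2-Q1, H2-T24 and H2-Q5 were lower and H2-Bl and H2-Q7 higher with both antimiRs. In SCR mice 7 member probes were higher and 9 lower in 85% O2, where 43.9% of all 35982 probes tested were called, and in A34a mice 9 were higher and 4 lower, where 46.6% were called. Of these, 10 were called in both in the same direction, 6 of them higher, and 0 in opposite directions. Class I had 2 probes higher in SCR mice and 1 in A34a mice. The second H2-K1 probe, which shares a run of 29 bases with the H2-T23 probe, moved more than the brightest. Its group means in 21% and 85% O2 were 2.955 and 3.294 in SCR mice and 3.004 and 3.352 in A34a mice. Those of the brightest H2-K1 probe were 4.341 and 4.473, and 4.415 and 4.613. Class II had 5 lower and 0 higher in SCR mice, and 0 lower and 1 higher in A34a mice. Non-classical probes had 3 higher and 4 lower, and 4 higher and 4 lower. The class II counts were not stable. In SCR mice 2 were lower and 0 higher with normexp background correction (38.1% of all probes), and 3 lower and 1 higher with quantile normalization (41%). In A34a mice 0 were lower and 2 higher with either. The split of higher and lower calls of all members in SCR mice turned under some alternatives, to 9 and 5 with normexp background correction, to 8 and 5 with quantile normalization and to 8 and 7 without the 3 arrays that stood apart. With the methods' t-test 0 were higher and 5 lower in SCR mice, where 29.8% of all probes were called. Groups did not overlap in 9 of 41 probes in SCR mice and 15 in A34a mice, where this held for 39.0% and 42.0% of all probes.

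H2-Q1 was again the gene with the largest change at P5. It went from −2.75, −2.69, −2.66 and −2.51 in SCR mice in 21% O2 to −4.28, −4.28, −4.24 and −4.18 in 85% O2, with no overlap, a change of −1.59 ± 0.20 (limma adjusted p = 2.77e-05), and of −1.81 ± 0.20 (adjusted p = 7.39e-06) in A34a mice, where 1 of the 85% O2 arrays was not well above background. H2-T24 changed by −0.49 ± 0.13, a call lost with quantile normalization (−0.285, adjusted p = 0.0548), and by −0.60 ± 0.13 in A34a mice. H2-Q5 changed by −0.65 ± 0.18 and −0.67 ± 0.18. H2-Bl went the other way, from −0.55, −0.48, −0.37 and −0.21 to −0.24, 0.27, 0.28 and 0.40 in SCR mice, a change of 0.58 ± 0.13, and of 0.41 ± 0.13 in A34a mice. The A34a call of H2-Bl was lost on leaving out A34a mouse 2 (0.384) or 3 (0.335) in 21% O2 or A34a mouse 1 in 85% O2 (0.364). H2-Q7, the gene of the surface molecule Qa-2, was higher at 0.41 ± 0.13 and 0.38 ± 0.13. H2-K2, the pseudogene, was higher by 0.46 ± 0.11 and 0.42 ± 0.11. With the methods' t-test the SCR calls of H2-Bl (adjusted p = 0.0569) and H2-K2 (0.056) and the A34a call of H2-Q5 (0.0722) were lost.

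Among the presenting class II chains, H2-Eb1 and H2-Ab1 were lower in SCR mice at P5 and H2-Aa was not called. H2-Eb1 stood at 3.59, 3.60, 3.65 and 3.77 in 21% O2 and 3.11, 3.24, 3.33 and 3.45 in 85% O2, which do not overlap, a change of −0.37 ± 0.10 (limma adjusted p = 0.00607). H2-Ab1 changed by −0.31 ± 0.10 (adjusted p = 0.0219), a call lost with normexp background correction (−0.266), with the methods' t-test, and on leaving out SCR mouse 2 or 3 in 21% O2 (−0.287 and −0.289) or SCR mouse 1 or 3 in 85% O2 (−0.265 and −0.239). In A34a mice they changed by −0.15 ± 0.10 and −0.06 ± 0.10 and were not called. B2m was higher in SCR mice by 0.32 ± 0.12 (adjusted p = 0.0358), and at 0.17 ± 0.12 (adjusted p = 0.242) in A34a mice. The SCR call was lost with quantile normalization (0.286), the methods' t-test, no filter on dim probes, and on leaving out SCR mouse 1, 2 or 3 in 21% O2 (0.296, 0.307 and 0.325) or 2, 3 or 4 in 85% O2 (0.257, 0.285 and 0.32). H2-Aa, H2-DMb1, H2-DMb2, Cd74 and H2-Ob were not called at P5 with either antimiR on their brightest probes, and their changes lay between −0.24 and 0.26. A second H2-Ob probe was lower in SCR mice, at −0.29, and a second H2-Ab1 probe at −0.27.

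The largest change of a class II probe at P5 was that of the Ciita probe with shared runs. In SCR mice it stood at −3.93, −3.87, −3.71 and −3.58 in 21% O2 and at −5.26, −4.66, −4.49 and −4.05 in 85% O2, which do not overlap, a change of −0.84 ± 0.28 (limma adjusted p = 0.0255). In A34a mice it changed by −0.32 ± 0.28 (adjusted p = 0.37), and the other Ciita probes were not called with either antimiR. H2-Oa was the class II probe called higher in A34a mice, from −2.04, −1.94, −1.90 and −1.90 to −1.79, −1.58, −1.57 and −1.49, with no overlap. Its change was 0.34 ± 0.09 (adjusted p = 0.0062), where that at P14 was −0.59, and in SCR mice it was 0.17 ± 0.09 (adjusted p = 0.128) at P5.

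Whether the oxygen effect differed between ages was tested as an interaction in SCR mice. It was called for 21 of 41 probes, 6 higher and 15 lower at P14 than at P5, where 40.9% of all 39162 probes were called. The oxygen effect on H2-DMb1 was higher at P14 by 0.98 ± 0.15 (limma adjusted p = 1.14e-05). It was lower at P14 for H2-DMb2 at −1.53, H2-Ob at −1.50, H2-T24 at −1.29, H2-Q4 at −1.15 and H2-Oa at −1.04. Smaller differences in that direction were those of H2-Q1 at −0.75, H2-Bl at −0.72, H2-Aa at −0.70 and B2m at −0.66. With quantile normalization the split of calls was 3 higher and 17 lower, and without the 3 arrays that stood apart 3 higher and 16 lower. The effects on H2-Ab1 and H2-Eb1 were higher at P14 by 0.41 ± 0.16 and 0.53 ± 0.19. Both calls were lost without the 3 arrays that stood apart (0.366 and 0.499), with quantile normalization (0.273 and 0.394) and with normexp background correction (0.341 and 0.483). They were also lost on leaving out single SCR arrays, for H2-Ab1 7 of them and for H2-Eb1 5, among them P14 mouse 4 in 21% O2 (0.341 and 0.482). The age, the slide and the killing agent cannot be told apart in these differences.

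With all arrays in the fit, antimiR-34a gave 0 called member probes in every comparison. In 85% O2 it was 0 of 41 at P5, where 0.0639% of all probes were called, and 0 of 41 at P14, where 2.66% were called. In 21% O2 it was 0 of 41 at P5 and at P14, where 0.136% and 0% of all probes were called. With limma, 6, 3, 2 and 9 member probes had an unadjusted p under 0.05 in these 4 comparisons, and the methods' t-test with the same adjustment also called 0. The difference of the antimiR effect between oxygen levels was called for 0 of 41 at P5 (0.0556% of all probes) and 0 of 41 at P14 (0.0884%), with 1 and 2 at an unadjusted p under 0.05.

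The member with the smallest p for antimiR-34a in 85% O2 at P5 was H2-DMb1. Its SCR mice stood at 1.42, 1.59, 1.63 and 1.68 and its A34a mice at 1.76, 1.80, 1.89 and 2.10, which do not overlap, and the change was 0.31 ± 0.09 with a limma adjusted p of 0.194. In 85% O2 at P14 the class I and class II medians were −0.01 and −0.08, beside −0.043 over all probes. In 21% O2 at P14 the member median was −0.284 beside 0.004 over all probes, with no member called. Among the members above 0 on their brightest probes were H2-Q4, H2-M11, H2-T24 and H2-Eb2, at 0.61, 0.48, 0.18 and 0.20. The Ciita probe with shared runs had group means of −2.60 in SCR mice and −1.74 in A34a mice, and the second H2-M2 probe −2.21 and −1.87. H2-Eb1 there stood at 4.92, 5.08, 5.16 and 5.16 in SCR mice and at 4.09, 4.74, 4.76 and 4.93 in A34a mice, a change of −0.45 ± 0.16 with an adjusted p of 0.473. Without the 3 arrays that stood apart, 4 member probes were called there and 16.8% of all probes. Of these 3 arrays, the 2 from P14 are those that lay nearer to the opposite antimiR group. The 4 probes were of H2-Oa, at −0.50, and the brighter H2-M2 probe, at −0.66, with H2-Q4, at 1.15, and the Ciita probe with shared runs, at 1.71, in the other direction. For the difference of the antimiR effect between oxygen levels at P14, 2 of 41 probes were then called, both lower, beside 17% of all probes.

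Of 13 measured genes that load class I peptides, 10 rose and 0 fell from P5 to P14 in SCR mice in 21% O2, and 11 rose and 0 fell in 85% O2, beside 51.4% and 42.2% of all probes called. Nlrc5, the class I coactivator, rose by 1.08 and 1.05, and the immunoproteasome subunits Psmb8, Psmb10 and Psmb9 by 1.05, 0.88 and 0.85 in 21% O2. Under 85% O2 in SCR mice, 4 were higher and 1 lower at P5, led by the peptide transporter Tap1 at 0.85, and 6 were higher and 0 lower at P14, among them the proteasome activator Psme1 at 0.71 and the loading factor Tapbp at 0.46. These counts stand beside 43.9% and 60.8% of all probes called. In A34a mice 3 were higher and 0 lower at P5 and the same at P14, beside 46.6% and 65.6% of all probes.

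Of 12 class II processing genes and regulators, 9 were called for oxygen at P5, 8 for oxygen at P14 and 9 for age in 21% O2, in SCR mice, beside 43.9%, 60.8% and 51.4% of all probes. In 85% O2 at P5 in SCR mice, 5 of 12 were higher, among them the endosomal protease Ctss at 0.98, the thiol reductase Ifi30 at 0.72 and the protease Ctsl at 0.52, and 4 were lower. At P14 the proteases Lgmn and Ctsb were higher, at 1.11 and 0.98, and March1, which sends surface class II for breakdown, was lower at −2.46, as was the X box factor subunit Rfxank at −0.49, with 4 higher and 4 lower in all. In A34a mice 5 were higher and 0 lower in 85% O2 at P5, and 4 were higher and 4 lower at P14, beside 46.6% and 65.6% of all probes. With age in SCR mice in 21% O2, 5 rose and 4 fell, with March1 at 1.95 and the Y box subunit Nfya at −0.62, and in 85% O2 3 rose and 2 fell.

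The interferon gamma pathway is known to induce MHC genes. In SCR mice 3 of its 10 measured genes were higher and 0 lower in 85% O2 at P5, led by the receptor chain Ifngr2 at 0.47, and 3 were higher and 0 lower at P14, namely Irf8 at 0.47, Ifngr2 at 0.42 and Jak1 at 0.28, beside 43.9% and 60.8% of all probes called. In A34a mice 0 were higher and 1, Irf2, lower at P5, at −0.18, and 3 were higher and 0 lower at P14, beside 46.6% and 65.6% of all probes. From P5 to P14 in SCR mice, 6 rose in 21% O2, led by Ifngr1 at 0.56, Irf1 at 0.55 and Jak2 at 0.54, and 7 rose in 85% O2, led by Ifng itself at 1.02 and Socs1 at 0.81. None of the 10 fell with age at either oxygen level, and the counts stand beside 51.4% and 42.2% of all probes called.

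Marker lists moved with age as well. In SCR mice in 21% O2, B cell markers rose in 10 of 10 (beside 51.4% of all probes called), T cell markers in 9 of 10, dendritic cell markers in 7 of 9, macrophage markers in 7 of 10 and natural killer cell markers in 3 of 6, and none of these lists had a marker that fell. Monocyte and endothelial markers rose in 4 of 7 and 8 of 10, type II pneumocyte markers in 3 of 10, and skeletal muscle markers in 1 of 6. In 85% O2, where 42.2% of all probes were called, B cell markers rose in 0 of 10 and fell in 5, and dendritic cell markers rose in 6 of 9. Macrophage markers rose in 7 of 10 and fell in 1, and T cell markers rose in 3 of 10 and fell in 1. Monocyte markers rose in 5 of 7 and natural killer cell markers in 3 of 6. Endothelial markers rose in 7 of 10 and fell in 1, type II pneumocyte markers rose in 2 of 10 and fell in 5, and skeletal muscle markers rose in 0 of 6 and fell in 1. Some markers were faint in the P5 SCR mice. The dendritic cell marker Xcr1 was well above background on 0 of 4 arrays at either oxygen level. The natural killer cell marker Klre1 was so on 1 of 4 in 21% O2 and 0 of 4 in 85% O2, and the T cell marker Cd247 on 2 of 4 in 21% O2. The part of these cells in the rise of the MHC genes was not tested.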

How the data were processed

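Lung RNA of 32 mice was hybridised to Agilent one-colour arrays. The deposited spot files hold intensity values as read by Agilent Feature Extraction 10.7.3.1, where the processed signal is background-subtracted and detrended but not normalized between arrays. The authors' series table holds log2 values whose columns share one distribution, as after quantile normalization. It was used as an alternative. Array coordinates are in mm9. The number of arrays limits the precision.

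Spots of a probe were averaged after outlier-flagged and control spots were left out. Values are log2 processed signals minus the 75th percentile of each array. limma 3.58.1 (R 4.3.3) was fitted with 1 mean per group, on 16 arrays for comparisons within an age and on 32 for age, with Benjamini-Hochberg adjustment over the probes that passed the background flag in all 4 mice of some group of the fit. The methods name another test, which was run as an alternative. The script was tested on simulated data. P-values measure the spread between mice of a group.

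Each gene was named on its brightest kept probe. Values per mouse are given for H2-K1, H2-D1, B2m, H2-Aa, H2-Ab1, H2-Eb1, Cd74, Ciita, H2-DMa, H2-DMb1, H2-M3 and H2-T23, and for the 5 called members with the largest absolute change in each comparison, as values or ranges. Genes of related and marker lists are named where called, up to 4 per list and comparison. The members and lists were chosen with earlier results of these data known.

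Alternatives were normexp background correction (offset 50), quantile normalization, the authors' table, other filters on dim probes, fewer arrays in the fit, the mean over probes of a gene, the methods' test, the slide or the replicate number as a block, and each array left out in turn. The slide block was fitted for the antimiR comparisons only. Each slide held an SCR and an A34a group, so this block gave the same model as the main fit and could not change its result. Leaving out the 3 arrays that stood apart was chosen after seeing the data. The replicate numbers come from the titles.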

Additional observations from a re-analysis of the deposited data

Results flagged for a closer look

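In 9 of 176 groups of 4 mice, over 22 genes, 1 mouse lay far from the others, where chance gives about 1 in 20. H2-K1 was at 6.095 in P14 SCR mouse 3 in 85% O2, where the next was 5.635, and at 6.165 in P14 A34a mouse 1 in 85% O2, where the next was 5.513. H2-Aa was low at −0.335 in P5 A34a mouse 3 in 21% O2, next to 0.175. It was also low, at 2.347, in P14 SCR mouse 4 in 21% O2, next to 2.687, which is 1 of the arrays that stood apart. H2-DMb1 was high at 1.937 in P5 A34a mouse 2 in 21% O2, next to 1.72. H2-DMb2 was low at −5.826 in P14 A34a mouse 2 in 85% O2, next to −4.694, and was there not well above background. H2-Q4 was low at 7.377 in P14 A34a mouse 1 in 21% O2, next to 8.478, on another array that stood apart. H2-Q5 was high at −1.11 in P5 SCR mouse 3 in 21% O2, next to −1.617, and H2-T24 low at −2.997 in P5 SCR mouse 1 in 21% O2, next to −2.702.

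The oxygen effect in SCR mice differed between P14 and P5 by limma's test of that difference for 12 named genes. It was higher at P14 for H2-DMb1 by 0.976 (limma adjusted p = 1.14e-05), H2-Eb1 by 0.534 (adjusted p = 0.0277) and H2-Ab1 by 0.414 (adjusted p = 0.0343). The calls of H2-Eb1 and H2-Ab1 were lost in 9 and 12 of the alternatives, quantile normalization and leaving out the 3 arrays that stood apart among them, with values down to 0.391 and 0.27 and adjusted p up to 0.141 and 0.224. Among class II genes it was lower at P14 for H2-DMb2 at −1.528 (adjusted p = 0.00043), H2-Ob at −1.495 (adjusted p = 1.83e-05), H2-Oa at −1.042 (adjusted p = 4.22e-05) and H2-Aa at −0.697 (adjusted p = 0.0163). Among the others it was lower for H2-T24 at −1.289 (adjusted p = 7.95e-05), H2-Q4 at −1.151 (adjusted p = 0.00905), H2-Q1 at −0.745 (adjusted p = 0.0275), H2-Bl at −0.724 (adjusted p = 0.0175) and B2m at −0.659 (adjusted p = 0.00808). Age, slide and killing agent cannot be told apart here.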

How the results depend on the processing

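The called changes of named genes gave 2286 values under alternatives, none of which changed direction. Many of these values could not do so. Another filter on dim probes, the methods' t-test and leaving out an array of neither group compared keep the log2 change as it was. Quantile normalization and the authors' table gave nearly the same values. The tally is therefore no count of independent checks. Without leaving out single arrays, 616 stayed called and 38 lost the call, and with single arrays left out these counts were 1604 and 28. Changes of named genes that were not called were not tallied, and some were called under an alternative, such as B2m for oxygen at P14 in SCR mice without the 3 arrays that stood apart. The methods' t-test called 5 member probes for oxygen at P5 in SCR mice and 13 at P14 in A34a mice, where limma called 16 and 24, with 29.8% and 55.6% of all probes called by that test. Without the 3 arrays that stood apart, 4 probes were called for antimiR-34a in 21% O2 at P14 and 2 for the difference of its effect between oxygen levels at P14, beside 16.8% and 17% of all probes. Leaving out single arrays, the number of probes called for oxygen ran from 11 to 22 (SCR) and 10 to 19 (A34a) at P5, and from 13 to 18 (SCR) and 22 to 25 (A34a) at P14. It ran from 34 to 38 for age in 21% O2, from 26 to 28 for age in 85% O2 and from 15 to 22 for oxygen by age, and was 0 for every antimiR comparison.

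The replicate numbers did not pair the mice, since the correlations of same-numbered deviations ran from −0.355 to 0.5. With the replicate number as a block, 16 (SCR) and 11 (A34a) probes were called for oxygen at P5, 17 and 25 at P14, 36 and 27 for age in 21% and 85% O2, 20 for oxygen by age and 0 for each antimiR comparison.

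Normexp background correction moved the median of all probes from −0.065 to 0.108 for oxygen at P14 in SCR mice, from −0.114 to 0 in A34a mice, from 0.09 to 0.207 for age in 85% O2 and from 0.041 to 0.166 for oxygen by age. With it 9 members were higher and 10 lower for oxygen at P14 in A34a mice.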
